A study of Mus musculus with 2 samples.

Results

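The glucocorticoid response genes are 9 genes followed here through the resident cells of mouse bone: the glucocorticoid receptor gene Nr3c1, the hormone-activating enzyme gene Hsd11b1, and 7 genes known to be induced by the receptor, Fkbp5, Tsc22d3, Zbtb16, Sgk1, Klf9, Errfi1 and Cebpd. They were chosen by name, though with earlier results of these data known, and all 9 were found among the 21905 gene symbols of both libraries. The study asked which bone cells respond to chemotherapy. Its 12-week-old female mice received vehicle (Veh) or 10 mg/kg doxorubicin (Doxo, a DNA-damaging anthracycline), and femurs and tibias were taken at 96 hours. The labels give no strain, genetic change or number of mice. Bone fragments were digested with collagenase and depleted of CD45+, CD71+ and Ter119+ blood cells. The study's notes differ on whether CD31+ cells were removed too, and cells with all 7 endothelial markers remained.

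Glucocorticoids enter cells and bind the receptor, which is held ready in the cytoplasm by HSP90 and its partner proteins and then moves to the nucleus, where it binds DNA near its target genes. Before that, the enzyme encoded by Hsd11b1 can make active hormone from its inert 11-keto form inside the cell, using NADPH that the product of H6pd supplies in the endoplasmic reticulum, and the product of Hsd11b2 does the reverse. In bone, excess glucocorticoid is known for loss of osteoblast activity, and the hormone is a standard inducer of fat cell differentiation in marrow stroma. Stress kinases and immediate early signals also drive several of these genes, Sgk1, Errfi1 and Cebpd among them.

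Each condition was measured as 1 droplet library of 2488 cells, with 24859711 UMIs (counted mRNA molecules) in Veh and 20792033 in Doxo and a median of 8693 and 7347 UMIs per cell. The 2 libraries shared 4 cell barcodes. With 1 library per condition no difference could be tested, the condition and the library cannot be told apart, and every interval below covers counting error only. Cells were grouped by clustering in which none of the listed genes took part as variable genes. The 7 classes were CAR-like cells (CXCL12-abundant reticular cells, the Lepr+ and Adipoq+ stroma of marrow; 369 cells in Veh and 431 in Doxo, with 8 of 8 markers), bone and cartilage fibroblast-like cells (1083 and 1336, 6 of 9 markers), arteriolar and endosteal fibroblast-like cells (441 and 269, 7 of 8), osteoblast-like cells (205 and 125, 6 of 8), chondrocyte-like cells (244 and 203, 8 of 8), endothelial-like cells (103 and 69, 7 of 7) and an unnamed cluster led by Tmem196, Clic5 and Rab37 (43 and 55). All classes came from the same pair of libraries, so they are not independent of each other. Osteoblast-like cells were shallow, with a median of 3065 UMIs in Veh and 2930 in Doxo. The median mitochondrial share was higher in Doxo in all 7 classes, at 2.20 to 3.14% in Veh and 2.97 to 4.43% in Doxo. Erythroid RNA was higher in Veh in all 7, where the 5 erythroid markers summed to 94.8 to 539 UMIs per 1000000, against 4.56 to 62.9 in Doxo (all 5 were found in 5 classes). The part of both in the ratios below was not tested.

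The receptor binds a palindrome of 2 hexamers in opposite directions, written here as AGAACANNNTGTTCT, and single hexamers (AGAACA or TGTTCT, the same site read from either strand) are single arms of it. RefSeq start site windows on GRCm38.p6, each 300 bases long, were found for 6 of the 9 genes, 14 windows in all, and Nr3c1, Zbtb16 and Cebpd are named only. The whole palindrome was present in 1 of these 14 windows, that of Sgk1 at chr10:21993640-21993939, where it began 189 bases before the start, and in 3 of all 32851 windows (0.00913%). A lone or paired hexamer was in 4 of the 14 windows and in 19.0% of all windows, the palindrome's own window included. The 250 bases before the start are shown for 4 genes, 5′ to 3′ on the strand of the gene, with hexamers and the palindrome in capitals. Sgk1 (chr10:21993640-21993889, plus strand) carries the palindrome, Tsc22d3 (chrX:140600523-140600772, minus strand) carries a lone hexamer, and Fkbp5 (chr17:28486150-28486399, minus strand) and Errfi1 (chr4:150854820-150855069, plus strand) carry neither, although Fkbp5 had the highest of the ratios reported below for the 9 genes and Errfi1 one of the lowest. Sgk1 and Tsc22d3 have further windows, and some of these held no hexamer. No match says only that these letters are not in the window, and more distant sites were not searched.
Sgk1: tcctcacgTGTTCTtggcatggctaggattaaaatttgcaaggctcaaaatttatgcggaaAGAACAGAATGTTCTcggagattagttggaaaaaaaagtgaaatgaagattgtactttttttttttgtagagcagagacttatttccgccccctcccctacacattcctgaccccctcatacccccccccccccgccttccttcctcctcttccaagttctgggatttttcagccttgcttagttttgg
Tsc22d3: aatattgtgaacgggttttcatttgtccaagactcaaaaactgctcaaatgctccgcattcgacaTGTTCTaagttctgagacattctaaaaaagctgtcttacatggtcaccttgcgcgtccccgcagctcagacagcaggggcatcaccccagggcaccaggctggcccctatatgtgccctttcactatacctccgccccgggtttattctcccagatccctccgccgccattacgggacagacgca
Fkbp5: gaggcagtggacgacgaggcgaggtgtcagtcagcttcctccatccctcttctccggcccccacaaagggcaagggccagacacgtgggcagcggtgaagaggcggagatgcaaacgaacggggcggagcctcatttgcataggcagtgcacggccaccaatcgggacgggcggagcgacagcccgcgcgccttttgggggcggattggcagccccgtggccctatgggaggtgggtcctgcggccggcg
Errfi1: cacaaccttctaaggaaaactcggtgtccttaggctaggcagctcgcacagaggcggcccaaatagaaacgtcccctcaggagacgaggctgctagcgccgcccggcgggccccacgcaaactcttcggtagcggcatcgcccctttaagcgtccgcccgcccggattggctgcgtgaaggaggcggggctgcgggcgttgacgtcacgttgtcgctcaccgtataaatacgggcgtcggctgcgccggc

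The 9 genes did not move together after Doxo. Nr3c1 was lower in Doxo in all 7 classes, Tsc22d3 was higher in all 7 and Fkbp5 was higher in all 5 classes in which it was counted often enough, whereas Sgk1 and Errfi1 were about 3 times lower in CAR-like cells and showed other ratios elsewhere. Those 2 CAR-like differences fell under 1.5-fold without an inflammatory population of 83 Veh and 6 Doxo cells, described below. They did not under a second way of leaving out such cells. A level is the UMIs of a gene per 1000000 UMIs of a class, and a ratio is the log2 of Doxo over Veh with 0.5 UMI added to each sum. A gene was read in a class with at least 20 UMIs over both libraries and was counted as higher or lower at 1.5-fold, which is a size and not a test. Of the 63 pairs of a gene and a class, 55 had 20 UMIs, 14 of them were higher in Doxo and 8 were lower, beside 10.4% and 10.9% of 65371 such pairs over all genes. At 2-fold, 8 pairs were higher and 4 lower, beside 3.07% and 4.11%. Under every setting in which they could be read, 8 of the 14 and 2 of the 8 stayed past the fold, and a loss is given with the gene.

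By class, the members past the fold stood as follows beside all genes with 20 UMIs. In CAR-like cells 0 of 9 members were higher and 3 were lower, beside 13% and 9.47% of 11531 genes. The bone and cartilage fibroblast-like class held 2 of 9 higher and 0 lower, beside 4.16% and 9.45% of 13073 genes. For the arteriolar and endosteal fibroblast-like class it was 2 of 9 higher and 0 lower, beside 6.76% and 9.75% of 11282 genes. Osteoblast-like cells, where 6 members had 20 UMIs, had 1 higher and 2 lower, beside 12.7% and 19.4% of 5575 genes, so these counts stood near their background. Chondrocyte-like cells had 3 of 8 higher and 2 lower, beside 14.2% and 11.5% of 10752 genes. Endothelial-like cells had 3 of 7 higher and 0 lower, beside 14.4% and 10.5% of 6633 genes, and the unnamed cells had 3 of 7 higher and 1 lower, beside 12.4% and 10.5% of 6525 genes. The median ratio of the members was -0.52 in CAR-like cells, where that of all genes was 0.06, and 0.45 in endothelial-like cells.

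**Figure D1:**
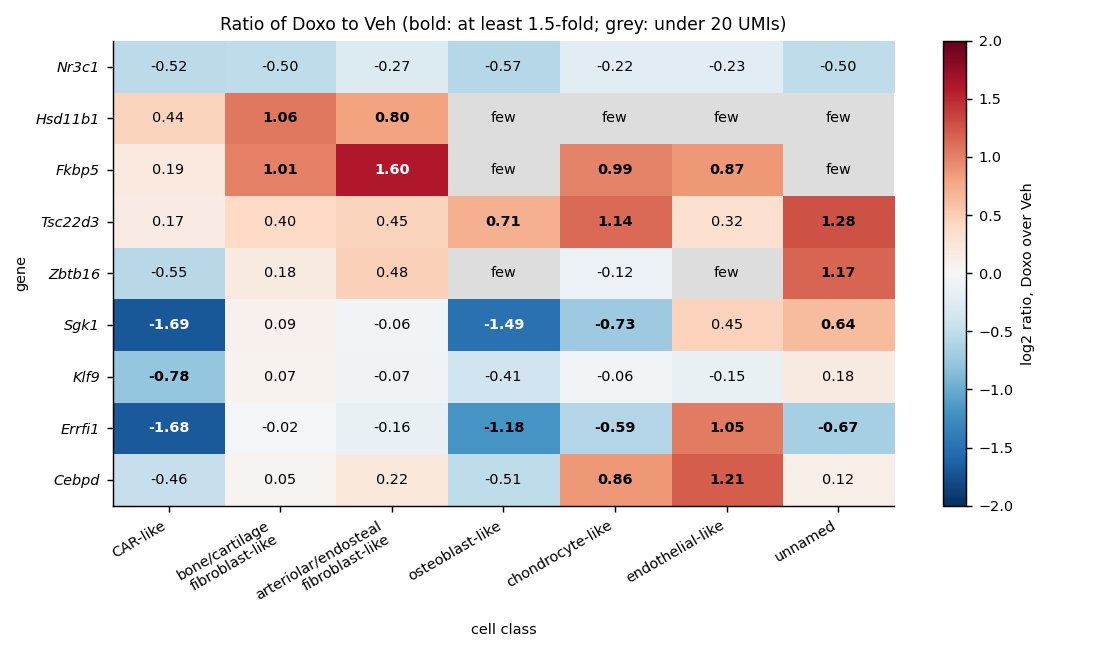
Log2 ratio of Doxo to Veh (colour scale and number) for the 9 genes (rows) in the 7 cell classes (columns), with ratios of at least 1.5-fold in bold and grey cells where fewer than 20 UMIs were counted. Nr3c1 is below 0 in every class and Tsc22d3 above 0 in every class, while Sgk1 runs from -1.69 in CAR-like to 0.64 in unnamed cells.

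Nr3c1 (ENSMUSG00000024431, chr18:39410545-39519421 on the minus strand), which encodes the glucocorticoid receptor, was present in every class. Its level was 225 in Veh and 158 in Doxo in bone and cartilage fibroblast-like cells (log2 ratio -0.50, 95% interval -0.59 to -0.41). In CAR-like cells it was 166 and 116 (-0.52, -0.72 to -0.32). Arteriolar and endosteal fibroblast-like cells held the highest level, 268 in Veh and 222 in Doxo (ratio -0.27, -0.43 to -0.12), and the unnamed cells held 168 and 118 (-0.50, -0.96 to -0.06). In osteoblast-like cells (86.4 and 57.5), chondrocyte-like cells (100.3 and 86.3) and endothelial-like cells (178 and 151), the interval of the ratio reached or passed 0. Veh was thus the higher library in each of 7 classes, by 1.16 to 1.49 times, and none of the ratios reached 1.5-fold. The interval lay below 0 in 4 classes. The ordering by level put CAR-like cells above chondrocyte-like cells without overlap between the libraries of the 2 classes, while each of the 4 classes above CAR-like cells overlapped its neighbour.

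The share of cells with an Nr3c1 UMI gave the same direction in all but 1 class once each cell was thinned to 2000 UMIs, which removes the difference in depth. The thinned share in bone and cartilage fibroblast-like cells was 34.9% for Veh (95% binomial interval, exact, 32.0 to 37.9) and 26.6% for Doxo (24.2 to 29.1), or 78.9% and 60.4% with all UMIs. In CAR-like cells it was 26.7% (22.2 to 31.7) and 20.7% (16.9 to 24.9), or 60.7% and 52.7%. The unnamed cells were the exception, with 25.6% of 43 cells in Veh and 31.5% of 54 cells in Doxo, and there the ratio was 0.36 when thinned. When only the main population of CAR-like cells was read (273 Veh and 406 Doxo cells, defined below), the level was 170 and 115 and the ratio -0.56 (-0.79 to -0.32).

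Hsd11b1 (ENSMUSG00000016194, chr1:193221634-193264075, minus strand) was chiefly a CAR-like transcript in these cells, and it was higher in Doxo in the 3 classes in which it could be read. Its level in CAR-like cells was 56.3 in Veh and 76.5 in Doxo (0.44, 0.14 to 0.75). Bone and cartilage fibroblast-like cells held 6.57 and 13.7 (1.06, 0.65 to 1.49) and arteriolar and endosteal fibroblast-like cells 7.89 and 13.7 (0.80, 0.04 to 1.55), which fell under the fold (0.52) when the listed genes were kept in the clustering. At most 2 UMIs per library were counted in osteoblast-like, chondrocyte-like and endothelial-like cells, and none in the unnamed cells, where 3 UMIs, the limit taken for a count of 0, would be a level of 4.99 in Veh and 4.80 in Doxo. The share of cells with a UMI was 19.2% in Veh (15.3 to 23.6) and 26.7% in Doxo (22.6 to 31.1) for CAR-like cells (median 6225 and 7384 UMIs), and 0.41% and 0.493% for the deeper chondrocyte-like cells (19518 and 14749).

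Free RNA from CAR-like cells can place their transcripts in other droplets, so the CAR markers were read beside Hsd11b1. The 8 CAR markers together reached 1.39% of their CAR-like level in bone and cartilage fibroblast-like cells of Veh and 0.926% in Doxo, whereas Hsd11b1 reached 11.7% and 17.9% there. In chondrocyte-like cells the markers reached 1.38% and 0.763%, and Hsd11b1 0.738% and 0.426%. In arteriolar and endosteal fibroblast-like cells the markers reached 2.91% in Veh and 2.12% in Doxo, and Hsd11b1 14.0% and 17.9%. Endothelial-like cells, with 1 Hsd11b1 UMI in each library, had the markers at 2.14% and 5.61% and Hsd11b1 at 2.54% and 3.74%. Hsd11b1 stood above the share of CAR markers in both fibroblast-like classes and below it in chondrocyte-like cells, from 2 and 1 UMIs. The part of free RNA in these levels was not tested. Within CAR-like cells the difference between libraries was smaller in the main population, at 63.0 and 77.4 (0.29, -0.05 to 0.65), where the interval included 0. Population 3, the smallest, of 13 Veh and 19 Doxo cells, with 8 of 9 bone and cartilage fibroblast markers and a median of 17954 UMIs, held 2 and 26 UMIs of Hsd11b1.

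H6pd, which supplies the reducing power for this enzyme, had the same class and the same direction in CAR-like cells. Its level there was 45.2 in Veh and 81.7 in Doxo (0.85, 0.54 to 1.18), and without the inflammatory population 48.6 and 83.3 (0.77, 0.43 to 1.14). Bone and cartilage fibroblast-like cells held 15.3 and 13.4 (-0.19, -0.52 to 0.14), and in chondrocyte-like cells 11.8 and 4.24 (-1.44, -2.48 to -0.60). Hsd11b2, whose product inactivates the hormone, was counted 3 times in Veh and 16 times in Doxo in CAR-like cells, under the minimum of 20. Of the 12 genes for steroid access and metabolism, 9 could be read in CAR-like cells. Of these 1 was higher (H6pd) and 2 were lower, beside 13% and 9.47% of all genes, with a median ratio of -0.04. Abcb1b, a drug and steroid efflux pump, was the lower gene whose interval left out 0, at 10.7 and 4.96 (-1.09, -2.08 to -0.18).

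**Figure D2:**
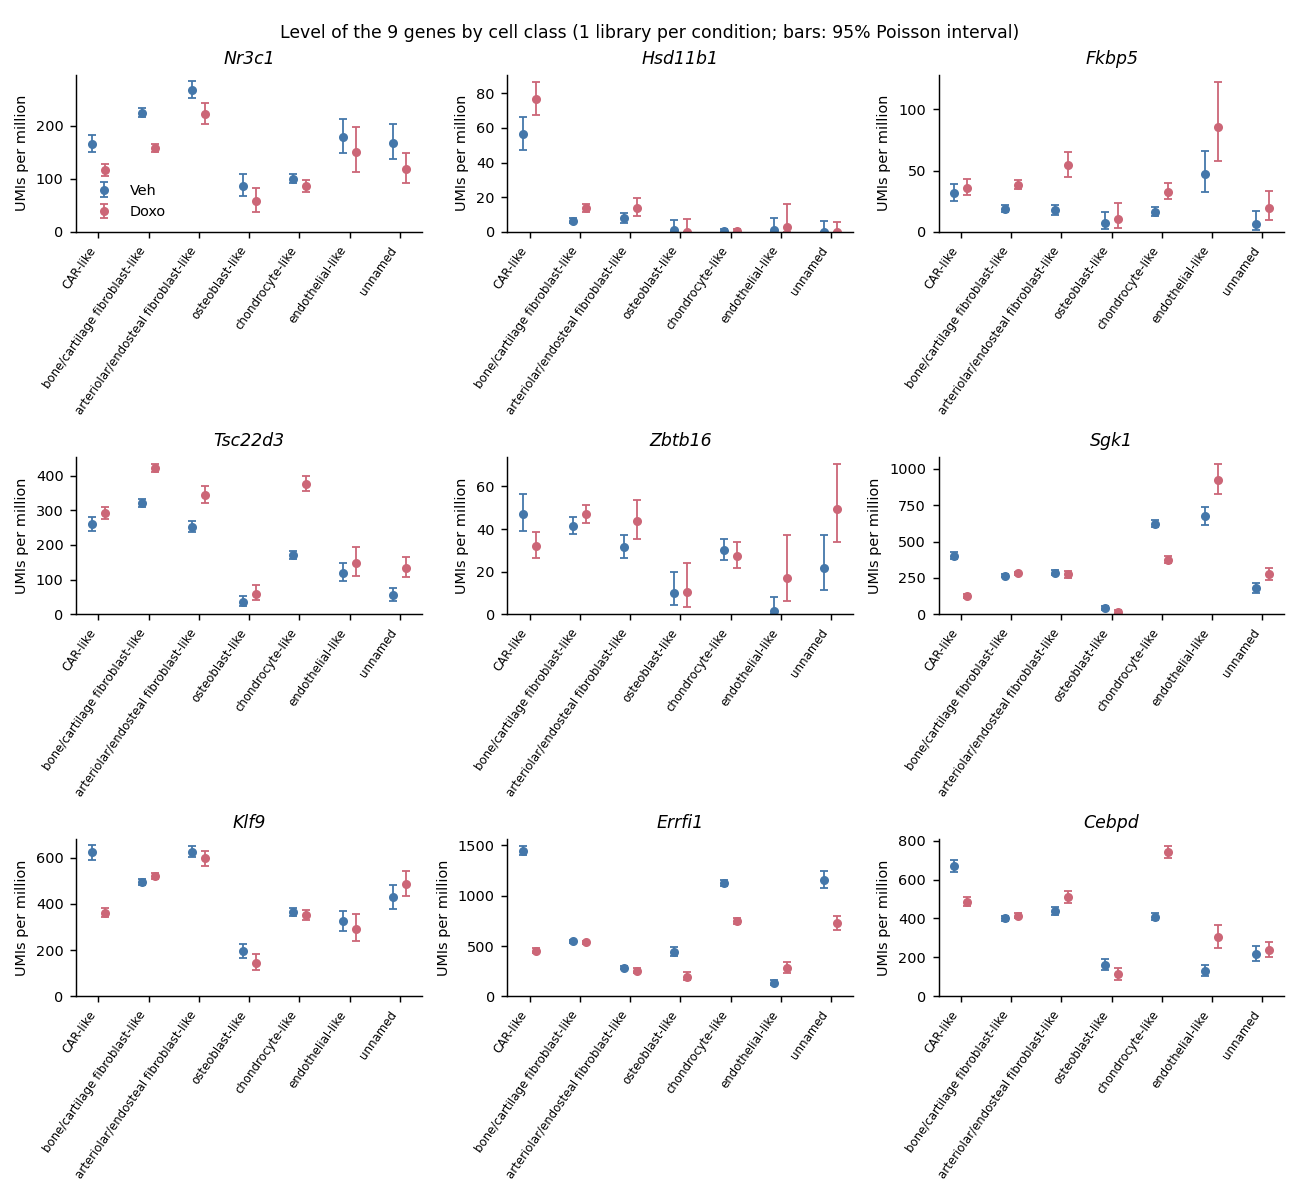
Level of each gene in UMIs per 1000000 (vertical axes, from 0) by cell class, with Veh in blue and Doxo in red, 1 library each, and bars for the 95% Poisson interval. Hsd11b1 stands highest in CAR-like cells (56.3 and 76.5), Fkbp5 and Tsc22d3 lie higher in Doxo across classes, and Sgk1 and Errfi1 lie lower in Doxo in CAR-like and chondrocyte-like cells.

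Fkbp5 (ENSMUSG00000024222, chr17:28399094-28517527, minus strand) encodes an HSP90 co-chaperone that holds the receptor in a state of low affinity, a feedback target of the hormone. It was higher in Doxo by at least 1.5-fold in 4 of the 5 classes in which it could be read. In arteriolar and endosteal fibroblast-like cells its level was 17.9 in Veh and 54.3 in Doxo, 3.03-fold higher (log2 ratio 1.60, 1.18 to 2.04). The bone and cartilage fibroblast-like level was 19.1 and 38.5 (1.01, 0.77 to 1.26). Chondrocyte-like cells held 16.4 and 32.6 (0.99, 0.55 to 1.43), and endothelial-like cells held 47.1 and 85.8 (0.87, 0.10 to 1.62). The endothelial-like ratio was 0.38, under the fold, with each cell thinned to 2000 UMIs, and 23.3% of its Doxo UMIs were in 1 cell. CAR-like cells had 31.7 in Veh, above both fibroblast-like classes of Veh, and 36.2 in Doxo (0.19, -0.23 to 0.62), so the 2 libraries could not be separated there at this depth. The ratio in CAR-like cells ranged from -0.23 to 0.36 over the settings tried. Among all genes with 20 UMIs, 62.6% had a lower ratio than Fkbp5 in CAR-like cells, 98.8% in bone and cartilage and 99.7% in arteriolar and endosteal fibroblast-like cells.

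Tsc22d3 (ENSMUSG00000031431, chrX:140539528-140600659, minus strand), which encodes the anti-inflammatory leucine zipper protein GILZ, was higher in Doxo in all 7 classes and past the fold in 3. Chondrocyte-like cells went from 171 in Veh to 377 in Doxo (1.14, 1.01 to 1.27), and the unnamed cells from 54.9 to 134 (1.28, 0.70 to 1.92). Osteoblast-like cells held 36.3 and 59.6, 29 UMIs in each library (0.71, -0.08 to 1.51), and fell under the fold when thinned (0.47) and with 20 components (0.46). The level was 321 and 422 in bone and cartilage fibroblast-like cells (0.40, 0.33 to 0.46), and in arteriolar and endosteal fibroblast-like cells 252 and 345 (0.45, 0.31 to 0.58). CAR-like cells held 260 and 292 (0.17, 0.03 to 0.31), the smallest of the ratios, and endothelial-like cells 120 and 149 (0.32, -0.22 to 0.83). Thinned to 2000 UMIs, the share of cells with a Tsc22d3 UMI was 27.3% in Veh (21.8 to 33.4) and 47.2% in Doxo (40.1 to 54.4) among chondrocyte-like cells, and 32.7% (27.8 to 37.8) and 39.0% (34.4 to 43.9) among CAR-like cells. In the main CAR-like population the level was 269 and 282, and the interval of its ratio (0.07, -0.10 to 0.24) included 0.

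Zbtb16 (ENSMUSG00000066687, chr9:48654297-48836222, minus strand), the gene of the transcription factor PLZF, was scarce, and 5 classes could be read. Its level was 47.2 in Veh and 32.1 in Doxo in CAR-like cells (-0.55, -0.94 to -0.17) and 31.6 and 43.8 in arteriolar and endosteal fibroblast-like cells (0.48, 0.08 to 0.86). The unnamed cells held 21.6 and 49.6, from 13 and 31 UMIs (1.17, 0.22 to 2.26). For bone and cartilage fibroblast-like cells (41.5 and 46.9) and chondrocyte-like cells (29.9 and 27.4) the interval of the ratio included 0. The CAR-like ratio was not stable: it ranged from -0.61 to 0.04 over the settings tried.

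Sgk1, Errfi1, Klf9 and Cebpd, whose products act in kinase signalling and transcription, had their lowest ratios in CAR-like or osteoblast-like cells. For Cebpd these were osteoblast-like cells, where the direction depended on the setting, as given below. Sgk1 (ENSMUSG00000019970, chr10:21882184-21999903, plus strand) encodes a kinase of ion transport and survival, and its level in CAR-like cells was 404 in Veh and 125 in Doxo, 3.23-fold lower (log2 ratio -1.69, -1.86 to -1.53). Errfi1 (ENSMUSG00000028967, chr4:150853919-150868892, plus strand) encodes MIG6, an inhibitor of EGF receptor signalling, and it stood at 1447 and 453 there, 3.19-fold lower (-1.68, -1.76 to -1.59). Klf9 (ENSMUSG00000033863, chr19:23141226-23168134, plus strand), a zinc-finger transcription factor gene, was at 622 and 362 (-0.78, -0.89 to -0.67). Cebpd (ENSMUSG00000071637, chr16:15887286-15891031, plus strand), an early transcription factor gene of fat cell differentiation and acute phase responses, was at 669 and 487 (-0.46, -0.56 to -0.36). Under 1% of all genes in CAR-like cells had lower ratios than Sgk1 (0.963%) or Errfi1 (0.980%).

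These 4 genes were unequally spread within the CAR-like cells. Clustering these cells alone gave a main population (273 Veh and 406 Doxo cells), the small population 3 described above, and an inflammatory population led by Il6, Ccl7, Ccl2 and Cxcl1, with 83 Veh and 6 Doxo cells. In Veh, Sgk1 was 1052 in the inflammatory and 137 in the main population, 7.64-fold higher. Errfi1 was 3518 and 606 (5.81-fold), Klf9 1137 and 389 (2.92-fold) and Cebpd 1171 and 473 (2.48-fold). For Nr3c1 (137 and 170), Hsd11b1 (54.6 and 63.0), Fkbp5 (31.4 and 34.0), Tsc22d3 (227 and 269) and Zbtb16 (57.4 and 42.2) the intervals of the ratio between populations included 0. These clusters were drawn from the same cells, so the values are a description. The inflammatory population made 22.5% of the CAR-like cells of Veh and held 75.6% of their Sgk1 UMIs, 70.5% of Errfi1, 53.0% of Klf9 and 50.8% of Cebpd, against 23.8% of Nr3c1 and 25.3% of Tsc22d3.

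**Figure D3:**
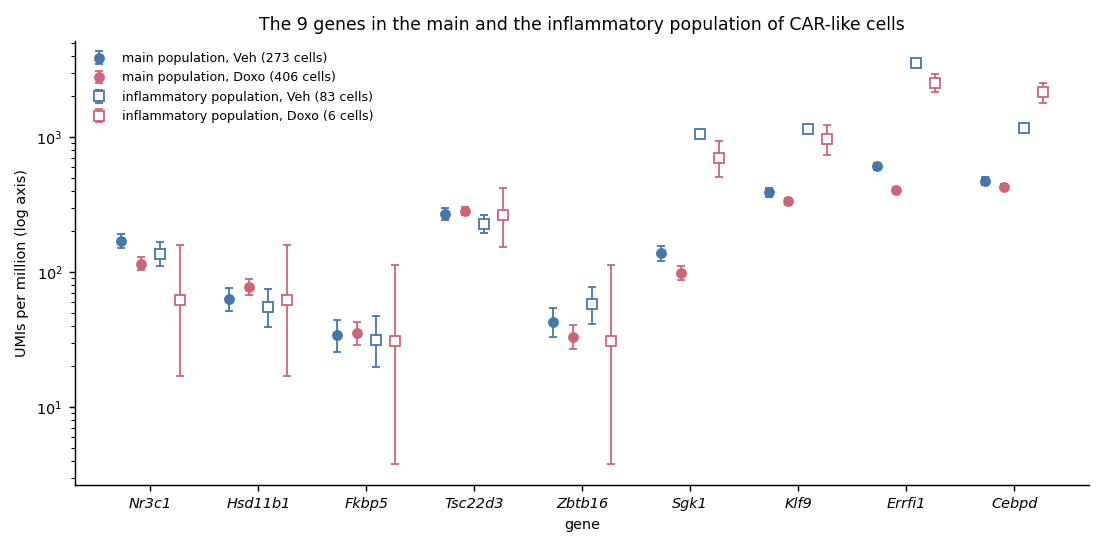
Level of the 9 genes in UMIs per 1000000 (log axis) in the main (filled circles) and inflammatory (open squares) populations of CAR-like cells, Veh in blue and Doxo in red, with 95% Poisson intervals. Sgk1, Klf9, Errfi1 and Cebpd lie above the main population in the inflammatory cells of both libraries, and the Doxo squares rest on 6 cells.

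Without the inflammatory population, in 286 Veh and 425 Doxo cells, the differences between libraries were smaller. Sgk1 was then 139 in Veh and 114 in Doxo (-0.29, -0.52 to -0.05), Errfi1 601 and 413 (-0.54, -0.66 to -0.42), Klf9 411 and 351 (-0.23, -0.36 to -0.10) and Cebpd 464 and 455 (-0.03, -0.15 to 0.10). Of the 9 genes, 0 were then higher and 1 was lower by 1.5-fold, beside 9.09% and 10% of 11349 genes, and that gene was Nr3c1 (179 and 117; -0.61, -0.82 to -0.39). The median over the 9 genes was -0.23 and that of all genes -0.04. A second way of leaving out such cells, by their own Il6, Cxcl1 and Ccl2 (at least 2000 UMIs per 1000000 together) and with no clustering, removed 75 Veh and 11 Doxo cells, 64 and 2 of them in the inflammatory population. It left Sgk1 at -1.05, Errfi1 at -0.91 and Klf9 at -0.41, so how far the ratios of Sgk1 and Errfi1 shrank depended on which cells were left out. Genes of dissociation and the immediate early response stood higher in the inflammatory population of Veh. The 14 of them summed to 26459 there and to 12309 in the main population, against 12217 in the main population of Doxo. In the 6 inflammatory cells of Doxo they summed to 31000. Population 3, of 13 Veh and 19 Doxo cells, held 8838 in Veh and 21449 in Doxo. Without the inflammatory population 3 of the 14 were higher and 3 lower, beside the same 9.09% and 10%, with a median ratio of 0.05. Their part in the result was not tested.

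Outside CAR-like cells the same 4 genes followed several patterns. In both fibroblast-like classes all 4 lay within 1.5-fold: bone and cartilage fibroblast-like cells held Sgk1 at 265 in Veh and 282 in Doxo and Errfi1 at 546 and 537, and arteriolar and endosteal fibroblast-like cells held Sgk1 at 286 and 274 and Errfi1 at 286 and 257. In chondrocyte-like cells Sgk1 was 624 and 376 (-0.73, -0.83 to -0.63) and Errfi1 1126 and 747 (-0.59, -0.66 to -0.52). Cebpd went the other way in those cells, from 408 to 743 (0.86, 0.78 to 0.95), and Klf9 stood at 365 and 351. With cells assigned by their own markers Cebpd (0.45) and Errfi1 (-0.33) were under the fold, and Errfi1 was also under it with stricter cells (1000 or more genes found and no more than 5% mitochondrial UMIs; -0.54) and without the 5% of cells with most UMIs (-0.58). Other markers moved in these cells as well: the 8 chondrocyte markers summed to 37754 in Veh and 26118 in Doxo, the 8 osteoblast markers to 10928 and 4054, the 9 bone and cartilage fibroblast markers to 11201 and 7509 and the 5 erythroid markers to 539 and 4.56, with none at 0. The 14 dissociation and immediate early genes summed to 14698 in Veh and 29062 in Doxo in this class, with a median ratio of 1.03, and the part of these lists in the result was not tested.

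Osteoblast-like cells held Sgk1 at 42.6 and 14.4, from 34 and 7 UMIs (-1.49, -2.98 to -0.37). Of those 7 UMIs 57.1% were in 1 cell, and the ratio was -0.41 with stricter cells and 0.42 with cells assigned by their own markers, so the call was lost under both and the direction under the second. Osteoblast-like cells also held Errfi1 at 444 and 195 (-1.18, -1.53 to -0.86). In endothelial-like cells, where the mean Sgk1 level of the 2 libraries was highest (677 in Veh and 926 in Doxo; 0.45, 0.24 to 0.66), Cebpd was 131 and 303 (1.21, 0.79 to 1.63). The endothelial-like cells of Doxo also held more CAR marker RNA, with all 8 markers found and a sum of 826 in Veh and 2578 in Doxo, and its part in the result was not tested. Errfi1 stood at 136 and 280 there (1.05, 0.62 to 1.47), but 62 of its 98 Doxo UMIs came from 1 cell (63.3%). Without the cell with most Errfi1 UMIs in each library the ratio was -0.13. In the unnamed cells Errfi1 was 1156 and 728 (-0.67, -0.84 to -0.49) and Sgk1 178 and 277 (0.64, 0.28 to 1.00), with 28.3% of the Doxo UMIs of Sgk1 in 1 cell. When thinned both were under the fold, at -0.45 for Errfi1 and -0.40 for Sgk1, which thereby turned. Klf9 stood between -0.41 and 0.18 in the other 6 classes. The interval of its osteoblast-like ratio of -0.41 (-0.84 to 0.003) included 0. That ratio was -0.79 when thinned and 0.27 with cells assigned by their own markers, so its direction was not stable.

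Counted cell by cell, several of the 7 receptor targets were found together in a smaller share of CAR-like cells in Doxo than in Veh, and in a larger share of bone and cartilage fibroblast-like cells. With each cell thinned to 2000 UMIs, 52.0% of CAR-like cells of Veh (46.6 to 57.3) and 36.7% of Doxo (32.0 to 41.5) had a UMI of at least 3 of the 7 genes, and 5.11% and 9.76% had none. The shares with at least 3 were 35.1% (32.2 to 38.1) and 46.2% (43.5 to 49.0) for the bone and cartilage fibroblast-like class. Among arteriolar and endosteal fibroblast-like (34.9% and 36.6%) and chondrocyte-like cells (51.7% and 48.7%) the intervals of the 2 libraries overlapped. The mean number of target UMIs in a thinned CAR-like cell was 6.43 in Veh and 3.72 in Doxo, while the medians were 4 and 3. The inflammatory population entered these shares, with 83 Veh and 6 Doxo cells. Without it, 40.9% of CAR-like cells of Veh (34.96 to 47.0) and 36.0% of Doxo (31.4 to 40.8) had at least 3, the intervals overlapped, and the means were 3.82 and 3.58.

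Other genes known to be induced by glucocorticoids also stood at different ratios in different classes. Of 30 such genes, 26 could be read in CAR-like cells, 0 were higher and 10 were lower, with a median ratio of -0.16, beside the 13% and 9.47% of all genes. Cebpb, a partner factor of Cebpd, was 993 in Veh and 324 in Doxo (-1.61, -1.72 to -1.51), Glul, the glutamine synthetase gene, 337 and 146 (-1.20, -1.37 to -1.04), and the metallothionein gene Mt1 1538 and 693 (-1.15, -1.22 to -1.08). Without the inflammatory population the counts were 2 higher and 3 lower of 26, near the 9.09% and 10% of all genes, and the ratios were -0.17 for Cebpb, -0.27 for Glul and -0.26 for Mt1. In both fibroblast-like classes and in chondrocyte-like cells 26 of the 30 could be read as well, though not necessarily the same genes. Of these, 3 were higher and 2 lower in the bone and cartilage fibroblast-like class (median 0.16). The counts were 4 and 0 in the arteriolar and endosteal one (0.17), and 10 and 9 in chondrocyte-like cells (0.16). Osteoblast-like cells had 0 higher and 8 lower of 19 (-0.53), endothelial-like cells 7 and 5 of 19 (0.20) and the unnamed cells 4 and 3 of 17 (0.01). The shares of all genes in these classes are those set beside the members above.

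The chaperones that hold the receptor ready for hormone, and its coregulators, made a list of 18 genes. Of these, 0 were higher and 5 lower in CAR-like cells (median -0.36), beside the same 13% and 9.47%. Hsp90aa1 was 1654 in Veh and 687 in Doxo (-1.27, -1.34 to -1.19), Hspa8 2867 and 1246 (-1.20, -1.26 to -1.15) and the co-chaperone gene Dnajb1 425 and 236 (-0.85, -0.98 to -0.72). These chaperones also respond to heat and handling. Without the inflammatory population 1 was higher and 1 lower, beside 9.09% and 10% of all genes. Hsp90aa1 then stood at -0.73, Hspa8 at -0.47 and Dnajb1 at 0.06. In the fibroblast-like classes none of the 18 was past the fold in either direction (medians -0.13 and -0.15). Among the 14 dissociation and immediate early genes, 0 were higher and 6 lower in CAR-like cells (median -0.50, the same background), led by Hspb1 (377 and 131; -1.53), Atf3 (323 and 123; -1.39) and Hspa1a (440 and 210; -1.07). In the 2 fibroblast-like classes 4 and 4 of the 14 were higher and none lower (0.44 and 0.43). Of all genes there, 4.16% and 6.76% were higher and 9.45% and 9.75% lower. Osteoblast-like cells had 0 higher and 5 lower (-0.52), beside 12.7% and 19.4%, and endothelial-like cells 5 and 2 (0.34), beside 14.4% and 10.5%. Unnamed cells had 4 and 2 (0.16), beside 12.4% and 10.5%, and chondrocyte-like cells 10 and 1, beside 14.2% and 11.5%. The medians of this list are set beside those of the 9 members, which come second. They were -0.50 and -0.52 for CAR-like and -0.52 and -0.54 for osteoblast-like cells. For bone and cartilage fibroblast-like cells they were 0.44 and 0.09, and for arteriolar and endosteal fibroblast-like cells 0.43 and 0.22. Endothelial-like cells had 0.34 and 0.45, unnamed cells 0.16 and 0.18, and chondrocyte-like cells 1.03 and -0.09. Without the inflammatory population the CAR-like medians were 0.05 for this list and -0.23 for the members. The part of this list in the members' ratios was not tested.

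**Figure D4:**
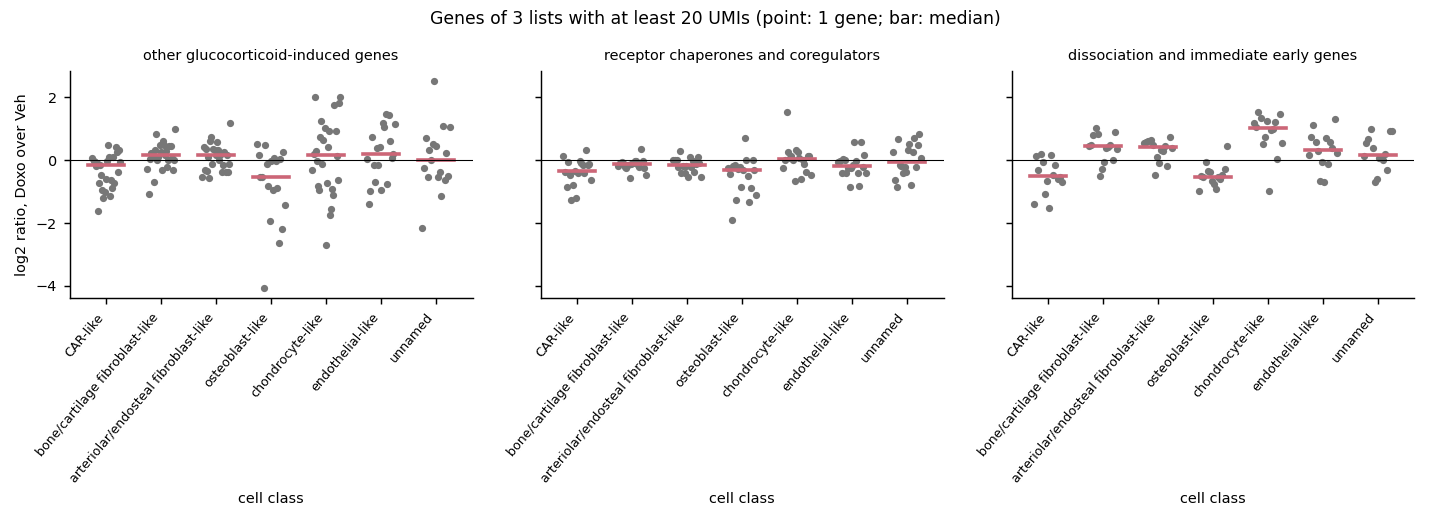
Log2 ratio of Doxo to Veh (vertical axes) of the genes of 3 lists with at least 20 UMIs, by cell class, 1 point per gene and a bar at the median. In CAR-like cells the medians of the 3 lists lie at -0.16, -0.36 and -0.50, and in chondrocyte-like cells the dissociation list lies at 1.03.

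Among 10693 genes with at least 200 UMIs, likeness to each member was measured as Pearson's r of log2(UMIs per 1000000 + 10) over 14 points, the 7 classes in 2 libraries. The points share their libraries and differ in depth, so r is a description. The genes most like Hsd11b1 were Otulinl (r = 0.97), Gnao1 (0.96) and G0s2 (0.96). For Nr3c1 they were Sirt2 (0.93), Supt4a (0.92) and C1qbp (0.91). Fkbp5 was most like Hnrnpa0 (0.93), BC005537 (0.91) and Polr2a (0.90), and among the 3 genes most like Tsc22d3 were Mmgt1 (0.91) and 5930430L01Rik (0.91). Zbtb16 was followed by Tbx15, A430005L14Rik and Cry2 (0.90 each), Sgk1 by Ddx5 (0.95), Cct2 (0.94) and Bbx (0.93), and Klf9 by Trmt112 (0.94), Acadsb (0.93) and Hdgf (0.93). Errfi1 had the loosest likeness, to Fkbp14 (0.84), Il17ra (0.81) and Hsd17b7 (0.80), and among the 3 genes most like Cebpd were Igf2bp3 (0.91) and A430005L14Rik (0.88). No member was among the 3 genes most like another member. Between pairs of members r ran from -0.33 (Fkbp5 and Errfi1) to 0.84 (Tsc22d3 and Cebpd), with 0.80 for Nr3c1 and Klf9.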

How the data were processed

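Reads were aligned to GRCm38 with Cell Ranger (version not given in the sources used here), and the submitters' notes also name Partek. The authors deposited log2 values per gene and cell after filtering in Seurat, and the values show per-cell scaling to 1000000 followed by a log, carried out in 2 passes. Both passes were inverted to UMIs, of which 99.9% came out whole (within 0.1), so low genes keep their counting error. Median depth was 8693 UMIs per cell in Veh and 7347 in Doxo. Cells were clustered in Seurat 5.3.0 (R 4.3.3) with 35 components of 2000 variable genes, the listed genes left out, at resolution 0.1, and named by markers (at least 3 found in 10% of cells and 1 log2 unit above other cells). No doublet caller was run, and doublets were kept.

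UMIs were summed by class and library (Python 3.11.15, scipy 1.17.1) with exact 95% Poisson, binomial and conditional binomial intervals; the scripts were checked on simulated counts. No comparison was tested, as each condition has 1 library. Alternatives were thinning, equal weight per cell, centring, stricter cells, other components, other class rules, minimum and fold. Named genes were the 9 members, list genes past 1.5-fold in CAR-like cells with an interval leaving out 0 (at most 3 each way), and the 3 genes most like each member, of which 1 gene is not reported here. The members and lists were chosen with earlier results of these data known. Gene positions are from GENCODE M21.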

Additional observations from a re-analysis of the deposited data

Results flagged for a closer look

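Sgk1 and Errfi1 stood out because they were at least 1.5-fold higher in Doxo in some classes and at least 1.5-fold lower in others; the difference between classes was not tested, with 1 library per condition. The Sgk1 log2 ratio was 0.64 in the unnamed class, against -1.69 for CAR-like, -1.49 for osteoblast-like and -0.73 for chondrocyte-like cells. For Errfi1 it was 1.05 in the endothelial-like class, against -1.68 for CAR-like, -1.18 for osteoblast-like, -0.59 for chondrocyte-like and -0.67 for unnamed cells. Without the cell with most UMIs of the gene in each library, the 2 higher ratios were 0.32 (Sgk1) and -0.13 (Errfi1), both under the fold. The lower ratios were not firm either. Without the inflammatory population the CAR-like ones were -0.29 (Sgk1) and -0.54 (Errfi1), under the fold. Each stayed past the fold in 10 of 11 settings. With cells left out by Il6, Cxcl1 and Ccl2 they were -1.05 and -0.91. Osteoblast-like Sgk1 was 0.42 with cells assigned by their own markers, where chondrocyte-like Errfi1 was -0.33, and Errfi1 in unnamed cells was -0.45 when thinned. Osteoblast-like Errfi1 and chondrocyte-like Sgk1 stayed past the fold under the 9 settings run for them.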

How the results depend on the processing

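Of 503 single values recomputed under 11 settings, 435 kept to within their counting interval, 68 moved further; in all, 21 changed sign. Of these 21, 16 had a ratio under 1.5-fold to begin with. The other 5 were in the following pairs. Sgk1 in unnamed cells was -0.40 with cells thinned to 2000 UMIs and -0.00305 without the 5% of cells with most UMIs. Errfi1 in endothelial-like cells was -0.36 without those 5%. It was -0.13 without its top cell in each library, an alternative chosen after seeing the data. Sgk1 in osteoblast-like cells was 0.42 with cells assigned by their own markers. The cause was not tested, but leaving out the top cell of each library turned Errfi1 in endothelial-like cells. The median over the members moved in CAR-like cells to -0.23 without the inflammatory population, and stayed at -0.41 when cells were left out by Il6, Cxcl1 and Ccl2 (chosen after seeing the data). In bone and cartilage fibroblast-like cells it was 0.18 with centred ratios, 0.16 when thinned and 0.21 without the top 5%. In endothelial-like cells it was 0.17 with every cell weighing the same, 0.12 when thinned, 0.15 without the top 5% and 0.87 with no UMI minimum. It was 0.45 in unnamed cells with 20 components. With cells assigned by their own markers it was 0.10 in arteriolar and endosteal fibroblast-like and 0.31 in osteoblast-like cells, and 5 pairs were lower; this rule put 600 in place of 330 cells in the osteoblast-like class. A fold of 2 left 8 of 55 pairs higher and 4 lower, beside 3.07% and 4.11% of all pairs of a gene and a class. Fkbp5 and Hsd11b1 in bone and cartilage fibroblast-like cells stayed past 1.5-fold under all 9 settings. No paired analysis was possible because each condition has 1 library. Depth limited the rare genes: 8 of 63 pairs had under 20 UMIs.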

Other observations

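Zfp36, whose product tristetraprolin shortens the life of inflammatory mRNAs and which is among the 30 other glucocorticoid-induced genes, was chosen here after its values were seen. Its log2 ratio of Doxo to Veh was -0.06 in all CAR-like cells and 1.20 (264 in Veh and 607 in Doxo) without the inflammatory population. It was 1.00 in bone and cartilage fibroblast-like, 1.19 in arteriolar and endosteal fibroblast-like, 2.02 in chondrocyte-like, 1.15 in endothelial-like, 1.06 in unnamed and -1.43 in osteoblast-like cells. Zfp36 is also an immediate early gene, and the part of dissociation in these values was not tested.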
